A study of Mus musculus with 13 samples.

Results

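The BCL2 family genes Mcl1, Bcl2, Bcl2l1, Bcl2l2, Bcl2l11, Bax, Bak1, Bid, Bad and Bmf were followed in mouse keratinocytes over 4 h. All probe sets annotated to only 1 of these 10 genes were taken, whatever their level. They numbered 27, from 9 of the 10 genes, among the 20393 probe sets of the array that are named to 1 gene. No probe set was listed for Bax, and Bax has no value here. Mcl1 had 6 probe sets, Bcl2l11 had 5, Bcl2l1 and Bcl2l2 had 4 each, Bak1, Bid and Bad had 2 each, and Bcl2 and Bmf had 1 each.

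The arrays were made from primary keratinocytes, the main cells of the epidermis, infected with a retrovirus for DNp63alpha fused to an estrogen receptor domain. Tamoxifen switches such a fusion protein on without new transcription of it. There were 12 arrays of tamoxifen-treated cells, taken at 20 min steps from 20 to 240 min, and 1 array of untreated cells. All 13 arrays carried the fusion, so cells without it and tamoxifen-free cells kept for the same time are not part of the comparison. With 1 array per time there were no replicates, and each difference was judged against the scatter of neighbouring arrays. Nothing in the labels tells if each array had a culture of its own, so a p-value here sets a difference only against array-to-array spread, which may be technical. The medians of the arrays lay between 237.4 and 251.5 intensity units, and the Spearman correlation of any pair of arrays was 0.983 to 0.997.

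Proteins of the BCL2 family decide whether the outer mitochondrial membrane is breached in apoptosis. The pro-survival proteins, encoded here by Mcl1, Bcl2, Bcl2l1 (BCL-X) and Bcl2l2 (BCL-W), hold the effectors BAX and BAK in check. BH3-only proteins, encoded here by Bcl2l11 (BIM), Bid, Bad and Bmf, bind the pro-survival proteins or activate the effectors. Many of these proteins are controlled by phosphorylation, cleavage or degradation, which an array does not read. MCL1 in particular turns over rapidly. p63 belongs to the p53 family of transcription factors and binds DNA motifs much like those of p53.

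The start regions are shown for the genes with a probe set that differed below, and for Bmf, the measured gene with a p53 family motif there. The 250 bases before each annotated start, from RefSeq on GRCm38.p6, were searched on both strands for the p53 family decamer, the 10-base unit of the p53 and p63 response element, and for the AP-1 motif TGANTCA. The 10 genes had 16 such windows. Capitals mark the decamer, and each sequence runs 5′ to 3′ on the strand of its gene.
Mcl1, chr3:95658471-95658720, plus strand: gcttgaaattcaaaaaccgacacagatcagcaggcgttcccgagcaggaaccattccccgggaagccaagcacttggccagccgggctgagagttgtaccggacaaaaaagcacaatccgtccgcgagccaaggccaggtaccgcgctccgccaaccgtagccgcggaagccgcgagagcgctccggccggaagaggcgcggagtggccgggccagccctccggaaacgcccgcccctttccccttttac
Bcl2l2, chr14:54883175-54883424, plus strand: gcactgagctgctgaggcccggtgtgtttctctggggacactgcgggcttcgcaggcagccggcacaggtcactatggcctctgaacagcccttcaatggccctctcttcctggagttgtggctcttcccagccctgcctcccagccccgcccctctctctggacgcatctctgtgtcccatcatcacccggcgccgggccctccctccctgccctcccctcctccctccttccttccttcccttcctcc
Bcl2l11, first start, chr2:128125788-128126037, plus strand: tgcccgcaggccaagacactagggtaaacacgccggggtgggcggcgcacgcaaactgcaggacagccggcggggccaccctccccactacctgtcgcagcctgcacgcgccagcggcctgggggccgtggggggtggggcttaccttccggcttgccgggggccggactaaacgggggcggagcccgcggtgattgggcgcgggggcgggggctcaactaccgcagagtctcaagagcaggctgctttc
Bcl2l11, second start, chr2:128127325-128127574, plus strand: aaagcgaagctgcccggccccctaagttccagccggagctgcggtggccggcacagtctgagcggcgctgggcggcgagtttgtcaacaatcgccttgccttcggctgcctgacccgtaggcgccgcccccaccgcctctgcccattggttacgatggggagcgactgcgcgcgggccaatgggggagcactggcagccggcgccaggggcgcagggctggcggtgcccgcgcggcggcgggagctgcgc
Bid, chr6:120916825-120917074, minus strand: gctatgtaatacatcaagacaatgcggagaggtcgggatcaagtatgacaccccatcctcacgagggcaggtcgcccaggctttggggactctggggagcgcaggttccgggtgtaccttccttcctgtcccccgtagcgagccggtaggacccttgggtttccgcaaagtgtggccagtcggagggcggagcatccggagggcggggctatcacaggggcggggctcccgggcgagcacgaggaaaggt
Bad, first start, chr19:6941611-6941860, plus strand: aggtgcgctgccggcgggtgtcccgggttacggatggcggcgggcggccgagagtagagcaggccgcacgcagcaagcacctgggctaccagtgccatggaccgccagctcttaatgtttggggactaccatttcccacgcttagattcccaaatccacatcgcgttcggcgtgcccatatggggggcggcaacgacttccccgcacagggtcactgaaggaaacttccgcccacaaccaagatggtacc
Bad, second start, chr19:6942312-6942561, plus strand: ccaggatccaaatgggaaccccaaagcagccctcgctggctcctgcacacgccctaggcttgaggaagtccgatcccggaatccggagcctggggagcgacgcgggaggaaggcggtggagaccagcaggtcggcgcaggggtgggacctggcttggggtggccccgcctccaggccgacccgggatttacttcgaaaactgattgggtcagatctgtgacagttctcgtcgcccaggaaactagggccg
Bmf, chr2:118544588-118544837, minus strand: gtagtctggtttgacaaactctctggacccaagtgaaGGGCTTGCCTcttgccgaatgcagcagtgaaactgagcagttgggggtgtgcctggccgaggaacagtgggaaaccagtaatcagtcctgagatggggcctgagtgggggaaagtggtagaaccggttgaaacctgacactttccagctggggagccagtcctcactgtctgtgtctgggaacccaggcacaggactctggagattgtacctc
The decamer was in 2 of the 16 windows (12.5%), 1 of Bmf and that of Bax, and in 7.13% of all 32851 windows. It was in none of the windows of Mcl1, Bcl2l2, Bid and Bad, nor in the 2 windows of Bcl2l11. TGANTCA was in 0 of the 16 windows and in 6.75% of all windows, so no match of one motif overlapped the other. Of the 16 windows 14 were richer in G and C than the median of all windows (52.4%), whether or not the gene differed, from 53.2% in 1 window of Bcl2l1 to 74.8% in that of Bcl2. The other 2 windows, both of Bcl2l1, held 47.6% and 48.4%.

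Differences in the family were small, of a size also common over the array. A straight line of time over the 13 arrays asked which members rose or fell across the 4 h. Of 27 probe sets 4 passed at an adjusted p under 0.05 (14.8%), 2 upward and 2 downward, against 22.4% of all 20393 probe sets (12.2% upward and 10.2% downward). The largest change along the line was 1.27-fold over 4 h, for Bad. A fold along the line is the fitted slope taken over 4 h, and can differ from that between the first and last arrays.

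The 9 arrays from 80 to 240 min were also set against the 4 arrays at 0 to 60 min. The boundary between 60 and 80 min was chosen with the course of all genes known. Of the 27 members 6 differed (22.2%), 2 higher and 4 lower from 80 min, against 25.1% of all probe sets (12.7% higher and 12.4% lower). Values from 80 to 240 min did not overlap those at 0 to 60 min in 6 of 27 members, against 13.9% of all probe sets. They were the same 6 probe sets at the same boundary, so this is not a separate result. The largest of the 27 differences was 1.15-fold. At least 1.1-fold was reached by 6 members (22.2%), against 27.0% of all probe sets. The 95% intervals of all 27 differences lay within 1.3-fold, and those of 21 lay within 1.2-fold.

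**Figure D1:**
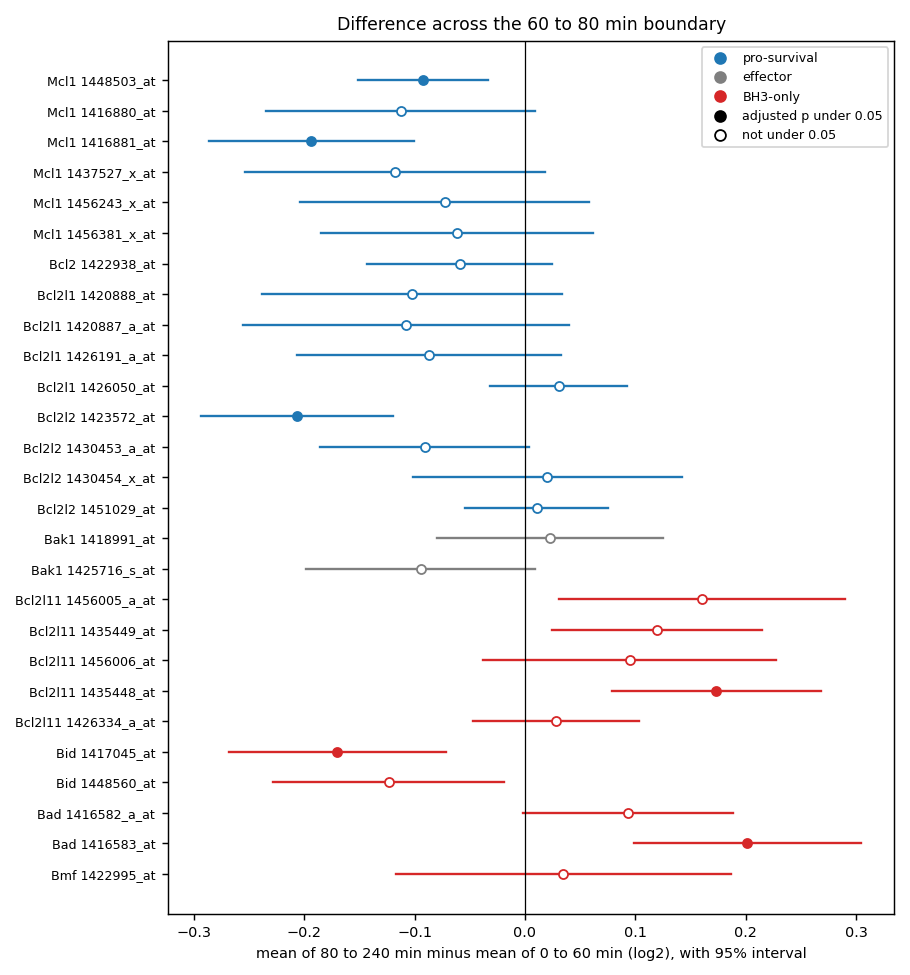
Difference between the mean of the 9 arrays from 80 to 240 min and the mean of the 4 arrays at 0 to 60 min for each of the 27 probe sets, on the log2(intensity + 16) scale (horizontal axis), with 95% intervals from the limma fit. Filled points passed an adjusted p of 0.05. The pro-survival genes are blue, Bak1 is grey and the BH3-only genes are red. The filled points of Mcl1, Bcl2l2 and Bid lie left of 0 and those of Bcl2l11 and Bad lie right of it.

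Among the pro-survival genes, 3 of 15 probe sets fell across the 60 to 80 min boundary and 0 rose, where 12.4% of all probe sets fell and 12.7% rose. They were 1 of Bcl2l2 and 2 of Mcl1. The median difference of the 15 was -0.09 on the log2 scale, against -0.0049 over all probe sets. Of the 15 probe sets 6 were of Mcl1, so this median is not one of independent genes. By the brightest probe set the differences were -0.09 for Mcl1, -0.06 for Bcl2, -0.10 for Bcl2l1 and -0.21 for Bcl2l2. Along the straight line 1 of the 15, that of Bcl2l2, passed (6.67%, against 22.4% of all probe sets).

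Bcl2l2 encodes BCL-W, a pro-survival protein close to BCL-X. Its brightest probe set, 1423572_at, read between 390.5 and 441.9 intensity units from 80 to 240 min, with a median of 400.9. It read 448.8 in untreated cells, 478.4 at 20 min, 489.6 at 40 min and 464.6 at 60 min. All 9 later arrays lay below all 4 earlier ones. Bcl2l2 fell across the boundary by 0.21 ± 0.041 in log2 units (SE, 13 arrays; adjusted p = 0.00143, limma), a 1.15-fold difference. The call held without any 1 of the 13 arrays. Along the line Bcl2l2 fell 1.21-fold over 4 h (adjusted p = 0.0119), with 1423572_at at 448.8 in untreated cells and 397.6 at 240 min. Its other 3 probe sets did not pass, with differences of -0.09 (1430453_a_at), 0.02 (1430454_x_at) and 0.01 (1451029_at). These 3 were dimmer, at percentiles 41.1, 37.3 and 11.1 of mean level, against 64.9 for 1423572_at. Correlations between pairs of the 4 probe sets over the arrays lay between -0.61 and 0.66. The result for Bcl2l2 therefore rests on 1 of its probe sets.

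Mcl1 encodes a short-lived pro-survival protein. Its brightest probe set, 1448503_at, read between 3694 and 4023 intensity units from 80 to 240 min, with a median of 3924. It read 4141 in untreated cells, 4223 at 20 min, 4119 at 40 min and 4054 at 60 min. The ranges did not overlap. The fall across the boundary was 0.09 ± 0.028 in log2 units (SE, 13 arrays; adjusted p = 0.0214, limma), or 1.07-fold. It lost its call without the untreated, the 20 min or the 40 min array (highest adjusted p = 0.0765).

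A second Mcl1 probe set, 1416881_at, read between 1234 and 1412 from 80 to 240 min (median 1297). It read 1474 in untreated cells, 1439 at 20 min, 1616 at 40 min and 1537 at 60 min. The later arrays again lay wholly below the earlier ones. It fell by 0.19 ± 0.044 (SE; adjusted p = 0.00369), or 1.14-fold, and kept its call without any 1 array. The other 4 Mcl1 probe sets had differences from -0.11 to -0.06 with adjusted p from 0.178 to 0.508, so all 6 estimates were below 0. None of the 6 passed along the straight line. Probe sets of 1 gene share its transcript and are not independent readings.

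The 20 min array stood apart in part of the Mcl1 probe sets. The probe set 1437527_x_at read 1590 at 20 min, against 1292 in untreated cells, and 1429 at 40 min. The probe set 1456243_x_at read 1355 at 20 min, against 1111 in untreated cells, and 1456381_x_at read 863 against 714. These 3 were at least 1.2-fold higher at 20 min than in untreated cells (1.23-fold, 1.22-fold and 1.2-fold), on the scale with the pseudocount. They were the only 3 of the 27 members past that bound, which 0.446% of all probe sets passed. The probe set 1416880_at was 1.15-fold higher, while 1448503_at (1.02) and 1416881_at (0.98) had ratios near 1. This is 1 array against 1 array, with no test, and the bound was set after the values were seen. Probe sets ending in _x_at can bind other transcripts of similar sequence.

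Bcl2l1 encodes BCL-X, which is made in a long pro-survival and a short pro-death form that these probe sets were not used to tell apart. Its brightest probe set, 1420888_at, read between 969.9 and 1258 from 80 to 240 min (median 1021). It read 1120 in untreated cells, 1123 at 20 min, 1254 at 40 min and 1069 at 60 min. The ranges overlapped, and the difference was -0.10 (95% interval -0.24 to 0.03; adjusted p = 0.283). In fold terms this interval runs from 0.848 to 1.02. The other 3 Bcl2l1 probe sets had differences of -0.11, -0.09 and 0.03, and none passed.

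Bcl2 was dim. Its 1 probe set, 1422938_at, stood at percentile 34.4 of mean level among all named probe sets and read between 150.6 and 172.6 from 80 to 240 min (median 157.3). It read 158.9 in untreated cells, 167.9 at 20 min, 176.7 at 40 min and 165.1 at 60 min. The difference was -0.06 (95% interval -0.14 to 0.02; adjusted p = 0.312). Bcl2 is also known as a survival gene of melanocytes, and the melanocyte gene Dct stood at percentile 93.9 in these arrays. Dct was the highest of the 8 melanocyte markers measured, and the lowest stood at percentile 24.8. Melanocyte markers are given further on, and their part in the Bcl2 signal was not tested.

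**Figure D2:**
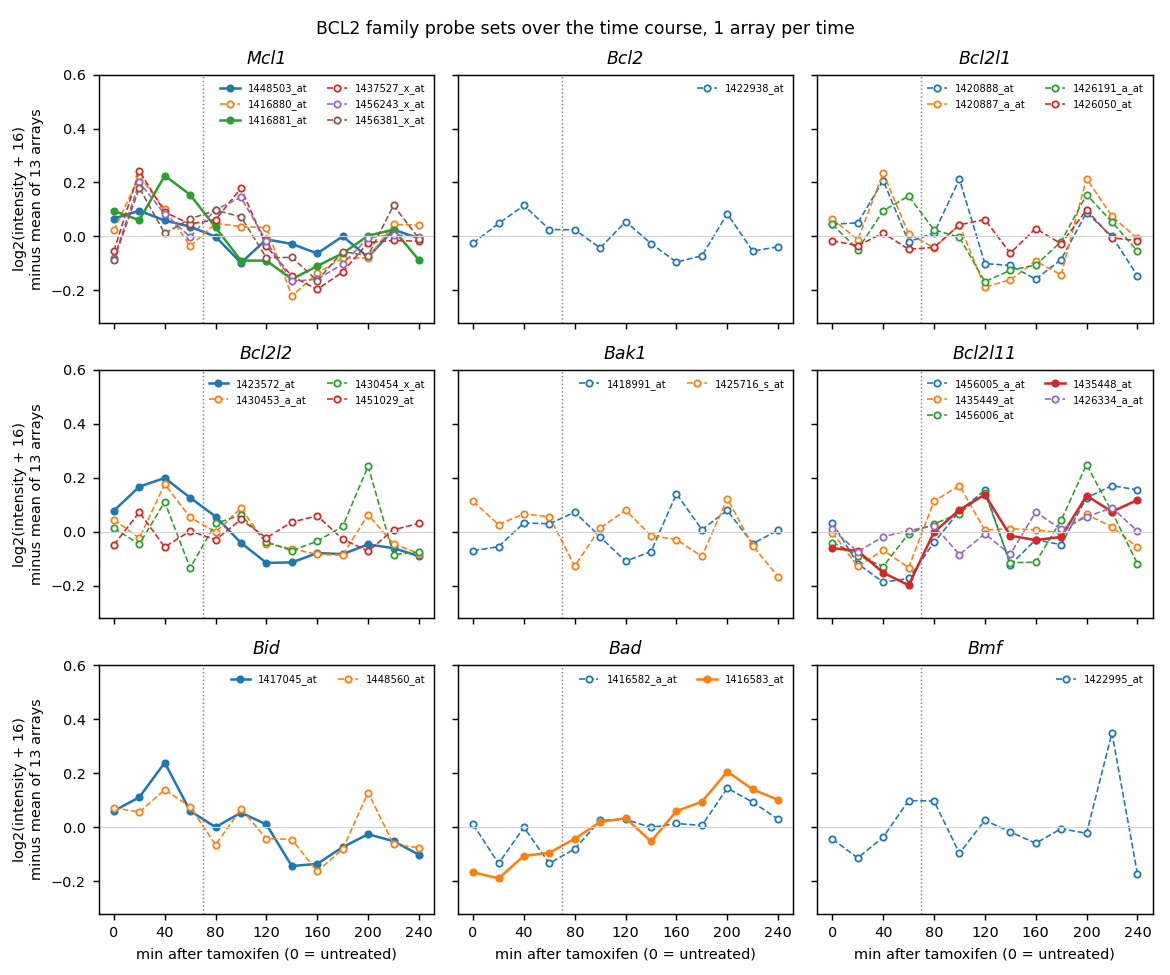
Level of each probe set at every time, as log2(intensity + 16) minus its mean over the 13 arrays (vertical axis), against min after tamoxifen (horizontal axis, 0 is the untreated array). Solid lines with filled points are the 6 probe sets that differed across the 60 to 80 min boundary, marked by the dotted line. Bad 1416583_at climbs over most of the course, and Bcl2l2 1423572_at and Mcl1 1416881_at lie lower from 80 min. The Mcl1 probe sets other than 1416881_at are highest at 20 min.

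Of the effectors only Bak1, which encodes a pore-forming protein of the outer mitochondrial membrane, was measured. Its probe set 1418991_at read between 332.8 and 398.8 from 80 to 240 min (median 361.7). It read 342.3 in untreated cells, 346.1 at 20 min, 368.9 at 40 min and 367.9 at 60 min. The difference was 0.02 (95% interval -0.08 to 0.12; adjusted p = 0.795), which is 1.02-fold. The second probe set, 1425716_s_at, had a difference of -0.09 (adjusted p = 0.185). The 2 probe sets of Bak1 had opposite signs and a correlation of -0.21 over the arrays.

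Among the BH3-only genes, 2 of 10 probe sets rose across the boundary and 1 fell, for Bad, Bcl2l11 and Bid, where 12.7% of all probe sets rose and 12.4% fell. The median difference of the 10 was 0.09 on the log2 scale, against -0.0049 over all probe sets. Of the 10 probe sets 5 were of Bcl2l11, so this median is not one of independent genes. By the brightest probe set the differences were 0.16 for Bcl2l11, -0.17 for Bid, 0.09 for Bad and 0.03 for Bmf. Along the line 2 rose and 1 fell, where 12.2% of all probe sets rose and 10.2% fell.

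Bad encodes a BH3-only protein that binds BCL-X and BCL2 unless it is phosphorylated by survival kinases. The probe set 1416583_at read between 669.4 and 804.0 from 80 to 240 min, with a median of 724.9 and the highest value at 200 min. It read 617.0 in untreated cells, 607.4 at 20 min, 644.3 at 40 min and 649.6 at 60 min. All 9 later arrays lay above all 4 earlier ones. Bad rose 1.27-fold along the line (0.34 ± 0.060 on the log2 scale over 4 h, SE, 13 arrays; adjusted p = 0.000865, limma) and 1.15-fold across the boundary (adjusted p = 0.00577). Both calls held without any 1 array and without the arrays at 200 and 220 min together. The other and brighter Bad probe set, 1416582_a_at, read between 938.9 and 1100 from 80 to 240 min (median 1011), against 903.8 to 1001 at 0 to 60 min. Those ranges overlapped, and its differences were 0.09 across the boundary (adjusted p = 0.15) and 0.16 along the line (adjusted p = 0.0941). The 2 probe sets of Bad had a correlation of 0.78 over the arrays.

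Bcl2l11 encodes BIM, a BH3-only protein that binds all the pro-survival proteins. Its probe set 1435448_at read between 211.1 and 239.2 from 80 to 240 min, with a median of 228.3. It read 206.5 in untreated cells, 204.9 at 20 min, 192.9 at 40 min and 186.3 at 60 min. The ranges did not overlap, and 60 min was the lowest array. It rose by 0.17 ± 0.045 across the boundary (SE; adjusted p = 0.00893), or 1.13-fold, and kept this call without any 1 array. Along the line its adjusted p was 0.0452, and that call was kept in only 5 of 13 fits that left out 1 array and was lost without the arrays at 200 and 220 min together.

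The brightest Bcl2l11 probe set, 1456005_a_at, read between 222.8 and 276.7 from 80 to 240 min (median 258.0). It read 250.028 in untreated cells, 223.5 at 20 min, 212.4 at 40 min and 214.6 at 60 min. The untreated array thus lay within the later range. Its difference across the boundary was 0.16 (adjusted p = 0.067), and the other 3 probe sets had differences of 0.12, 0.09 and 0.03 with none passing. All 5 estimates for Bcl2l11 were above 0.

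Bid encodes the BH3-only protein that caspase-8 cleaves to link death receptors to mitochondria. Its probe set 1417045_at read between 1065 and 1224 from 80 to 240 min (median 1136). It read 1229 in untreated cells, 1274 at 20 min, 1393 at 40 min and 1229 at 60 min. The later arrays lay just below the earlier ones. Bid fell across the boundary by 0.17 ± 0.046 (SE; adjusted p = 0.0122), or 1.12-fold, and along the line by 1.19-fold over 4 h (adjusted p = 0.0202). The probe set read 1097 at 240 min. Without the 40 min array, its highest, the first call was lost (adjusted p = 0.0748), and the second was lost without the 20 or the 40 min array. The second probe set of Bid, 1448560_at, had a difference of -0.12 (adjusted p = 0.0806).

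Bmf encodes a BH3-only protein released from the cytoskeleton when cells lose attachment. Its probe set 1422995_at read between 159.9 and 236.3 from 80 to 240 min (median 179.8), with both extremes in neighbouring arrays, 236.3 at 220 min and 159.9 at 240 min. It read 176.2 in untreated cells, 167.1 at 20 min, 177.2 at 40 min and 196.2 at 60 min. The difference was 0.03 (95% interval -0.12 to 0.19; adjusted p = 0.785).

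The slope within either part of the course added no call. Beside the step between 60 and 80 min 0 members had a slope past the threshold, as was the case for all 20393 probe sets. Within the 9 arrays from 80 to 240 min 0 members passed, with 3 of all probe sets. Within the 4 arrays up to 60 min 0 members passed, with 29 of all probe sets, and the slopes of Bcl2l2 1423572_at (0.053 per hour) and Bcl2l11 1456005_a_at (-0.206 per hour) were then opposite to those of the whole course.

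A contrast of late with early arrays made no use of untreated cells. At 180 to 240 min 3 of 27 members differed from 20 to 80 min (11.1%), against 11.7% of all probe sets. Of these 2 were higher and 1 lower late, against 6.57% and 5.10% of all. Bad 1416583_at stood at 9.61 ± 0.051 late and 9.37 ± 0.061 early (log2 level, SD over 4 arrays each; difference 0.24, adjusted p = 0.0112). Bcl2l11 1456005_a_at stood at 8.12 ± 0.10 late and 7.89 ± 0.067 early (difference 0.23, adjusted p = 0.0429). Bcl2l2 1423572_at stood at 8.71 ± 0.020 late and 8.92 ± 0.062 early (difference -0.21, adjusted p = 0.0165). Neighbouring times stand in for replicates here. Without the arrays at 200 and 220 min none of the 3 passed, the highest adjusted p being 0.234 for Bcl2l11, which also lost its call in 7 of the 13 fits that left out 1 array, with quantile normalization (adjusted p = 0.0537) and with median centring (adjusted p = 0.0581). Of all calls in this contrast 56.3% were higher late, and 39.0% with median centring. Bcl2l2 also lost it without the 20 or the 40 min array.

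The early window at 20 to 80 min was also set against the untreated array. With limma, 0 of 27 members passed, and 0 had an unadjusted p under 0.05. Of all probe sets 0.0049% (1 probe set) passed after adjustment and 416 had an unadjusted p under 0.05. With a single untreated array and so few calls in all, this contrast says little about the members. A natural cubic spline of time, which asks for change of any smooth shape, passed for 2 members (7.41%), Bad 1416583_at (adjusted p = 0.0131) and Bcl2l2 1423572_at (adjusted p = 0.04), against 12.0% of all probe sets. The Bad spline call was lost without the 20 min array or without the arrays at 200 and 220 min together, and that of Bcl2l2 was kept in 4 of 13 fits that left out 1 array.

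The genes most like the largest riser and the largest faller were looked up by Pearson correlation of log2 level over the 13 arrays, among 7923 genes at or above percentile 40 of level. For Bad 1416583_at these were Slc25a11 (r = 0.987), Suclg1 (0.969), Bdh1 (0.961), Mpg (0.96) and Pstpip1 (0.959). For Bcl2l2 1423572_at they were Mtf1 (0.969), Tollip (0.966), Numb (0.964), Itpkb (0.963) and Clic3 (0.962). High correlations were common: 171 genes had r over 0.9 with Bad and 193 with Bcl2l2. The points share the 13 arrays and the change between 60 and 80 min, and the correlations are a description.

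Genes that act beside the family were read through the brightest probe set of each, in 5 lists. Over all 12394 genes so read, 26.4% differed across the boundary (1660 higher and 1606 lower) and 23.8% had a linear trend. List genes were not refitted without single arrays. Of 11 genes of mitochondrial release and the apoptosome 7 rose across the boundary and 0 fell, with a median difference of 0.10 on the log2 scale. Apaf1, the scaffold of the apoptosome, rose 1.42-fold (0.51 ± 0.072, SE; adjusted p = 8.41e-05). Endog, a mitochondrial nuclease, rose 1.37-fold and Aifm1, the apoptosis-inducing factor of mitochondria, 1.26-fold (adjusted p = 0.000196 and 0.000162). Cycs, the gene of somatic cytochrome c, rose 1.12-fold (adjusted p = 0.033). The outer membrane channel genes Vdac1, Vdac2 and Vdac3 rose 1.13-fold, 1.06-fold and 1.07-fold (adjusted p = 0.0079, 0.0427 and 0.035). For Cycs and the Vdac genes the values from 80 to 240 min overlapped those at 0 to 60 min. Diablo, whose product binds caspase inhibitors, had a difference of -0.09 (adjusted p = 0.2), and Casp9 one of 0.09 (adjusted p = 0.19). Along the straight line 6 of the 11 rose and 0 fell. Each of Apaf1, Endog and Aifm1 thus differed by more than any of the 27 probe sets of the 9 measured family genes.

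Of 9 measured genes of caspases and death receptors 3 rose across the boundary and 0 fell, where 26.4% of all genes so read differed. Their median difference was 0.09. Fas, a death receptor gene, rose 1.57-fold (0.65 ± 0.064, SE; adjusted p = 3.36e-06) from a low level, percentile 28.6. Casp6, an executioner caspase gene, rose 1.41-fold, and Tnfrsf10b, the TRAIL receptor gene, rose 1.11-fold, also from a low level (percentile 33.7). Casp8, which cleaves BID, had a difference of 0.09 (adjusted p = 0.159). Cflar, an inhibitor of caspase-8, had one of -0.13 (adjusted p = 0.419). Of 5 caspase inhibitor genes 0 passed across the boundary in limma, with a median difference of 0.11, and 0 fell along the line. Birc5 (survivin), which also acts in mitosis, had a difference of 0.26 (adjusted p = 0.0584) and rose along the line by 1.43-fold over 4 h (adjusted p = 0.00414). The rise was not steady, with log2 levels of 10.28 in untreated cells, 10.79 at 60 min, 10.51 at 80 min and 10.72 at 240 min.

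Of 13 measured genes among the other family members and BNIP genes 1 rose and 2 fell across the boundary, with a median difference of -0.04. Over all genes so read 26.4% differed. Bnip3, a mitophagy receptor gene, rose 1.43-fold (adjusted p = 0.000111). Bok, a relative of BAX and BAK, fell 1.17-fold (adjusted p = 0.00825), and Bcl2l15 fell 1.13-fold (adjusted p = 0.00575). Pmaip1 (NOXA), a BH3-only gene whose product binds MCL1, fell along the line by 1.48-fold over 4 h (adjusted p = 0.000904) and had a difference of -0.27 across the boundary (adjusted p = 0.0508). The log2 level of Pmaip1 was 12.32 in untreated cells, 12.04 at 60 min, 12.23 at 80 min and 12.01 at 240 min. Bbc3 (PUMA), a BH3-only gene and p53 target, had a difference of -0.04 (adjusted p = 0.605).

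Of 16 genes for partners and turnover of BCL2 proteins 3 rose and 4 fell across the boundary, with a median difference of -0.03. Over all genes so read 26.4% differed. Trib1, a pseudokinase gene of ubiquitin ligase targeting, fell 1.54-fold (adjusted p = 4.93e-07). Mapk8 (JNK1), a kinase of BIM and BCL2, fell 1.21-fold, and Huwe1, a ubiquitin ligase of MCL1, fell 1.19-fold. Ywhaz, an adaptor that holds phosphorylated BAD in the cytosol, fell 1.1-fold (adjusted p = 0.00222). The BCL2-binding cochaperone gene Bag1 rose 1.15-fold, its relative Bag4 1.14-fold, and Tmbim6 (BAX inhibitor-1) 1.09-fold. The MCL1 deubiquitinase gene Usp9x had a difference of -0.23 (adjusted p = 0.229).

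**Figure D3:**
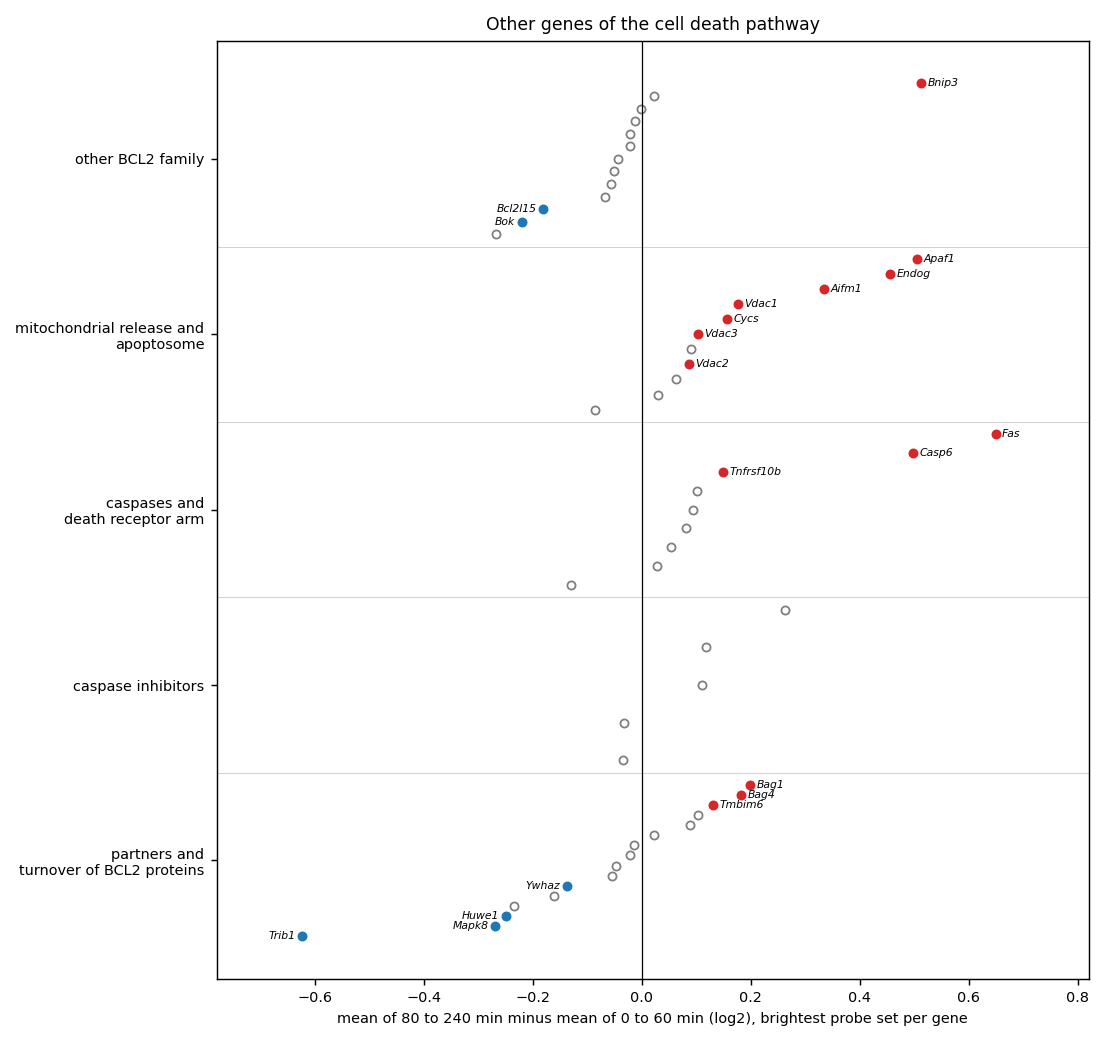
Difference between the mean of 80 to 240 min and the mean of 0 to 60 min for each gene of 5 lists beside the 10 family genes, on the log2(intensity + 16) scale (horizontal axis), by the brightest probe set of each gene. Red points rose and blue points fell at an adjusted p under 0.05, and open points did not pass. The 7 named genes of mitochondrial release lie right of 0, between Vdac2 at 0.09 and Apaf1 at 0.51.

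Markers of the cells in the culture were read in the same way. Of the keratinocyte markers Krt5 and Krt14 stood at percentiles 99.95 and 100 of level and Krt15, a keratin of part of the basal cells, at 27.1. Of 8 keratinocyte markers measured 3 were higher from 80 min and 0 lower, where 26.4% of all genes so read differed. The 3 were Krt5, Trp63 and Itga6, by 1.05-fold, 1.2-fold and 1.15-fold. Whether the Trp63 probe set also reads the transcript of the fusion was not tested. The summed intensity of 8 melanocyte markers lay between 6341 and 7062 from 80 to 240 min, against 6682 to 7633 at 0 to 60 min, and 1 of the 8, Mitf, was lower from 80 min (1.18-fold). Of 9 fibroblast markers 6 were below percentile 40, Fbln1 rose along the line by 1.17-fold, and Col3a1 was lower by 1.1-fold. Of 10 immune cell markers 7 were below percentile 40, and Cd68 was lower by 1.29-fold. The summed fibroblast level lay between 1389 and 1556 from 80 to 240 min, against 1444 to 1493 at 0 to 60 min. The summed immune level lay between 1693 and 2010 from 80 to 240 min, against 1825 to 2075 at 0 to 60 min. In these bulk samples fewer cells of a type and less RNA per cell cannot be told apart, and the part of such cells in the family's values was not tested.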

How the data were processed

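The authors deposited 1 linear intensity per probe set and array. No source used here names the software or scaling behind them. Per the labels, total RNA was extracted with Trizol and turned into biotinylated cRNA. A scaling to a common level would remove change shared by most transcripts.

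Probe sets were named through the platform's annotation table: 20393 had 1 gene, 691 several and 1606 none listed, and those with several or none entered no test. Symbols were updated by Entrez identifier through a RefSeq gene table of GRCm38.p6, from which only names were taken. Start regions came from a RefSeq promoter table of the same build. Values were taken as log2(intensity + 16), which understates the change of dim genes, with no further normalization.

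Each test used lmFit of limma 3.58.1 under R 4.3.3 (eBayes with an intensity trend, two-sided) over all 20393 probe sets, dim ones included, so that every member was tested. P-values were adjusted by Benjamini-Hochberg over all of them, at a threshold of 0.05. Intervals are 95% intervals of these fits, not adjusted for the number of probe sets. The spread of the single untreated array is taken to equal that of the rest. The 5 tests were checked on simulated data with known changes.

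The members, lists, tests and the boundary at 60 to 80 min were chosen with earlier results of these data known. Genes named are all members, up to 4 per list with the largest slope past the threshold, and the 5 most correlated with the largest riser and faller. Cycs, Vdac2, Vdac3, Casp8, Casp9, Diablo, Cflar, Bbc3, Ywhaz, Bag1, Tmbim6 and Usp9x among the list genes, and Krt14, Krt15, Trp63, Itga6, Col3a1 and Dct among the markers, were added after their values were seen. Percentiles of level and summed marker intensities describe signal on the array. Since probe sets differ in brightness, they do not rank transcript abundance between genes.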

Additional observations from a re-analysis of the deposited data

How the results depend on the processing

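The counts of members past the threshold were recomputed with a filter at percentile 40 of level, pseudocounts of 1 and 64, quantile normalization, median centring, 1 probe set per gene, other moderation, without the arrays at 200 and 220 min, and without each array in turn. With only the highest-mean probe set per gene, which leaves 9 members, 2 passed the linear trend, 3 the step and 1 the spline, and 3041 and 3339 genes passed the first pair overall. The linear trend had 0 members beside a step, from 80 to 240 min alone and up to 60 min alone, and between 2 and 5 with each array left out. The late window against the early one called 5 members with the filter, 5 without the intensity trend, 0 without the arrays at 200 and 220 min, and between 1 and 6 with each array left out. Over all probe sets that contrast called 2380, but 605 without the 200 and 220 min arrays, 870 without 20 min, 921 without 40 min, 1163 without 220 min and 3879 without 80 min. Its calls were 56.3% higher late, 39.0% with median centring and 33.6% without the 200 and 220 min arrays. The spline called between 0 and 3 members with each array left out, and over all probe sets 1483 without 20 min against 2452. For the early window against untreated, leaving out the only untreated array gives no value. The count of members at least 1.2-fold higher at 20 min was 3, or 2 with a pseudocount of 64, while over all probe sets it was 91, and 51 to 174 under 4 scales chosen after seeing the data.

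Slopes per hour of 7 brightest probe sets turned sign. For Mcl1 the slope was 0.0081 beside a step and 0.0119 from 80 to 240 min. Up to 60 min alone it was 0.0653 for Bcl2, 0.053 for Bcl2l2, -0.206 for Bcl2l11, 0.0383 for Bid and -0.0899 for Bad 1416582_a_at, while Bad 1416583_at, the probe set that rose, had 0.0901. For Bmf it was -0.0194 without the 200 and 220 min arrays, and between -0.0161 and 0.0456 with each array left out, turning without the 220 min array. The cause was not tested. No paired analysis was possible because there is 1 array per time. Array number limits the precision: the median residual SD about the line was 0.0789 on the log2 scale.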
